A study of Mus musculus with 36 samples.

Results

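A set of 10 genes of blood vessels and their growth signals was followed in epididymal white adipose tissue (eWAT), the visceral fat pad beside the mouse testis. They are the ligands *Vegfa*, *Vegfb*, *Angpt1* and *Angpt2*, the receptors *Kdr*, *Flt1* and *Tek*, the endothelial surface genes *Pecam1* and *Cdh5*, and the tip cell gene *Esm1*. The genes were chosen by name, and each of the 10 matched 1 of the 24750 rows of the deposited table. RNA was sequenced from 36 male mice, 3 in each of 12 groups formed by 2 genotypes, 3 diets and the presence or absence of a ligature. WT mice were C57BL/6 mice, and CCL19-KI mice carried the chemokine gene *Ccl19* inserted at the *Adipoq* locus, so that adipocytes express it, while *Adipoq* itself was left intact. CCL19-KI mice came from a homozygous line kept apart from the WT breeding, so that line and genotype cannot be told apart. Mice were fed a normal diet (ND), a 40% high-fat diet (HFD) or a 60% HFD for 8 weeks, at 14 weeks of age a ligature was tied in some of them to induce periodontitis, and tissue was taken after 2 more weeks on the same diet, following perfusion with saline. The labels name a ligature for 18 mice and none for the other 18, whereas the series' design text speaks of ligature in all groups, and the labels were followed here.

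Vascular endothelial growth factor A, encoded by *Vegfa*, drives the sprouting of capillaries through the receptor kinase VEGFR2, encoded by *Kdr*, while VEGFR1, encoded by *Flt1*, binds VEGF-A and VEGF-B and acts largely as a decoy. Angiopoietin-1 activates the receptor TIE2, encoded by *Tek*, and steadies vessels, and angiopoietin-2 can oppose it. PECAM-1 and VE-cadherin, the product of *Cdh5*, hold endothelial cells together, and endocan, the product of *Esm1*, marks the leading cells of a sprout. In adipose tissue, adipocytes are a main source of VEGF-A, and the capillary bed has to grow with the fat cells it feeds.

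Values are edgeR-normalized CPM, that is, read counts scaled to a common library size after a correction factor for each library. The table held 11962228 to 21581595 reads per library (median 15573273). Adipocyte markers were abundant in every library, with 192 to 2028 normalized CPM of *Plin1*, and the 20 endothelial markers of a list that holds none of the 10 genes were detected in all 36 libraries. The knocked-in gene was checked through *Ccl19* and *Gm2564*, a near copy of it. In 17 libraries labelled WT, *Ccl19* was 0.507 to 4.51 and *Gm2564* 0 to 0.160, and in 17 labelled CCL19-KI, *Ccl19* was 5.57 to 34.6 and *Gm2564* 11.6 to 107.9. The other 2 libraries went against their labels. The library labelled ND, WT, without ligature, replicate 2, had 19.2 of *Ccl19* and 41.9 of *Gm2564*, and the library labelled 60% HFD, CCL19-KI, without ligature, replicate 3, had 0.687 and 0. Both were kept under their labels, and the calls and the averaged values given singly are also given without them, from a fit of 34 libraries, in which a comparison between groups that hold neither library keeps its estimate. *Adipoq*, at the knock-in locus, was 615.3 to 3937 in the mice labelled WT (median 2323) and 300.1 to 1246 in those labelled CCL19-KI (median 616), lower with an adjusted p of 1.18e-05 (limma, log2 fold change -1.75). Of 9 adipocyte markers it was the 1 that passed for genotype, 0 of the 9 estimates were above 0 and their median was -0.43, so that the adipocyte score used below as a covariate carries a genotype difference. RNA of other organs was present as well. The score of 10 hepatocyte markers (mean log2 level) ran from 1.55 to 10.9 in mice fed the ND (median 5.89), from 5.13 to 11.0 under the 40% HFD (9.52) and from 1.89 to 11.1 under the 60% HFD (9.39), and that of 10 epididymis markers was over 4 in 3 libraries, the 2 above being among these 3. In bulk tissue, fewer cells of a type and less RNA per cell cannot be told apart.

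The promoters of the receptors are shown because *Flt1* and *Kdr*, receptors of one pathway, varied apart from each other over the libraries, and *Tek* differed from both. Each line is the 250 bases upstream of the transcription start from RefSeq on GRCm38.p6, read 5′ to 3′ on the strand of the gene, with capitals for AGGAAG or CGGAAG, words of the kind bound by ETS factors, searched on both strands. *Flt1* lies at chr5:147726012-147726261, *Kdr* at chr5:75978456-75978705 (both minus strand) and *Tek* at chr4:94739039-94739288 (plus strand).
Flt1: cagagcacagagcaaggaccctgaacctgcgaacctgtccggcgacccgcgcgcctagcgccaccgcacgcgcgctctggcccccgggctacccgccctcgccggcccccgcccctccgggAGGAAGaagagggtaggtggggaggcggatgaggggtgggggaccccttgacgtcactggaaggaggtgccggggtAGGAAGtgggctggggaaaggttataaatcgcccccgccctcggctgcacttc
Kdr: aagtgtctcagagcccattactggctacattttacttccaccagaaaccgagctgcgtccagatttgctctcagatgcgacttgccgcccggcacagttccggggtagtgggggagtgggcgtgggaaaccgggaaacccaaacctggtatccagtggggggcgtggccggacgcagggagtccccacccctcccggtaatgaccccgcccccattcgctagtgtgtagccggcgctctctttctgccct
Tek: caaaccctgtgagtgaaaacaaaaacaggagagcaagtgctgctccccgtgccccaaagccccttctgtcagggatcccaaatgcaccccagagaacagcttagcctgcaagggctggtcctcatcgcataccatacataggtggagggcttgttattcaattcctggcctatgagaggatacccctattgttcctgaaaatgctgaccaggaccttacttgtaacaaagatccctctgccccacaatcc
*Flt1* held 2 matches of AGGAAG, which do not overlap, and *Kdr* and *Tek* held none of either word. With both strands read, each of these promoters also holds GGAA, which the words share, in other contexts. Those were not searched, so lack of a match is not lack of such a core. AGGAAG, whose reverse complement is CTTCCT, occurred in 29.5% of 32851 mouse promoters of this length, and CGGAAG in 13.6%. *Tek* also held 2 matches of AAACA, a forkhead word found in 46.4% of promoters, and *Flt1* and *Kdr* none. G and C made up 70.4% of the bases in *Flt1*, 61.6% in *Kdr* and 51.2% in *Tek*. Of the other genes, *Vegfa* (with a pair of start sites), *Vegfb* and *Esm1* had an entry in the promoter table, with 0 matches of AGGAAG or CGGAAG. *Esm1* held 3 matches of AAACA and *Vegfb* 1. *Cdh5* and *Pecam1*, which varied with *Flt1*, had no entry, so the words cannot be set against the pattern over libraries.

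Per kilobase of exon, the ligands of the VEGF family stood highest, with medians over the 36 libraries of 28.4 normalized CPM for *Vegfb* and 21.1 for *Vegfa*. *Kdr* (6.50), *Tek* (5.21), *Cdh5* (5.05) and *Pecam1* (3.27) followed, and *Angpt1* (1.52), *Flt1* (0.763), *Angpt2* (0.604) and *Esm1* (0.215) were lowest. All 10 genes passed the filter (at least 1 normalized CPM in at least 3 libraries), and *Esm1* had no reads in 2 libraries, where 3 reads, the limit that a count of 0 allows, equal 0.207 normalized CPM (ND, WT, ligatured, replicate 1) and 0.170 (60% HFD, CCL19-KI, without ligature, replicate 1). *Cdh5*, *Angpt1*, *Angpt2* and *Esm1* each overlap a gene on the opposite strand, *Gm29682*, *Gm17473*, *Mcph1* and *Gzmk*. The paper names a directional library kit, but whether reads were counted by strand is not stated. Of the opposite-strand genes only *Mcph1* had a row, with a mean of 16.3 normalized CPM beside a median of 2.23 for *Angpt2*. When the 12 groups were put in order of their mean, neighbouring groups overlapped in all 11 steps for 9 of the genes. For *Kdr*, the ND-fed WT group without ligature lay apart at the bottom, and the other 10 steps overlapped. Differences among the 12 groups passed an F test (limma, adjusted over all genes) for *Kdr* (adjusted p = 0.0275), *Cdh5* (0.0298) and *Angpt2* (0.0462), and 24.1% of all 17852 genes tested passed it. Once the 2 libraries that went against their labels were left out, these 3 still passed (0.0259, 0.00496 and 0.0474), and *Vegfa* (0.0147) and *Pecam1* (0.0225) passed it too. The share of all genes that passed it without these libraries is not given, so the larger count is not read as a result about the 10 genes.

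**Figure D1:**
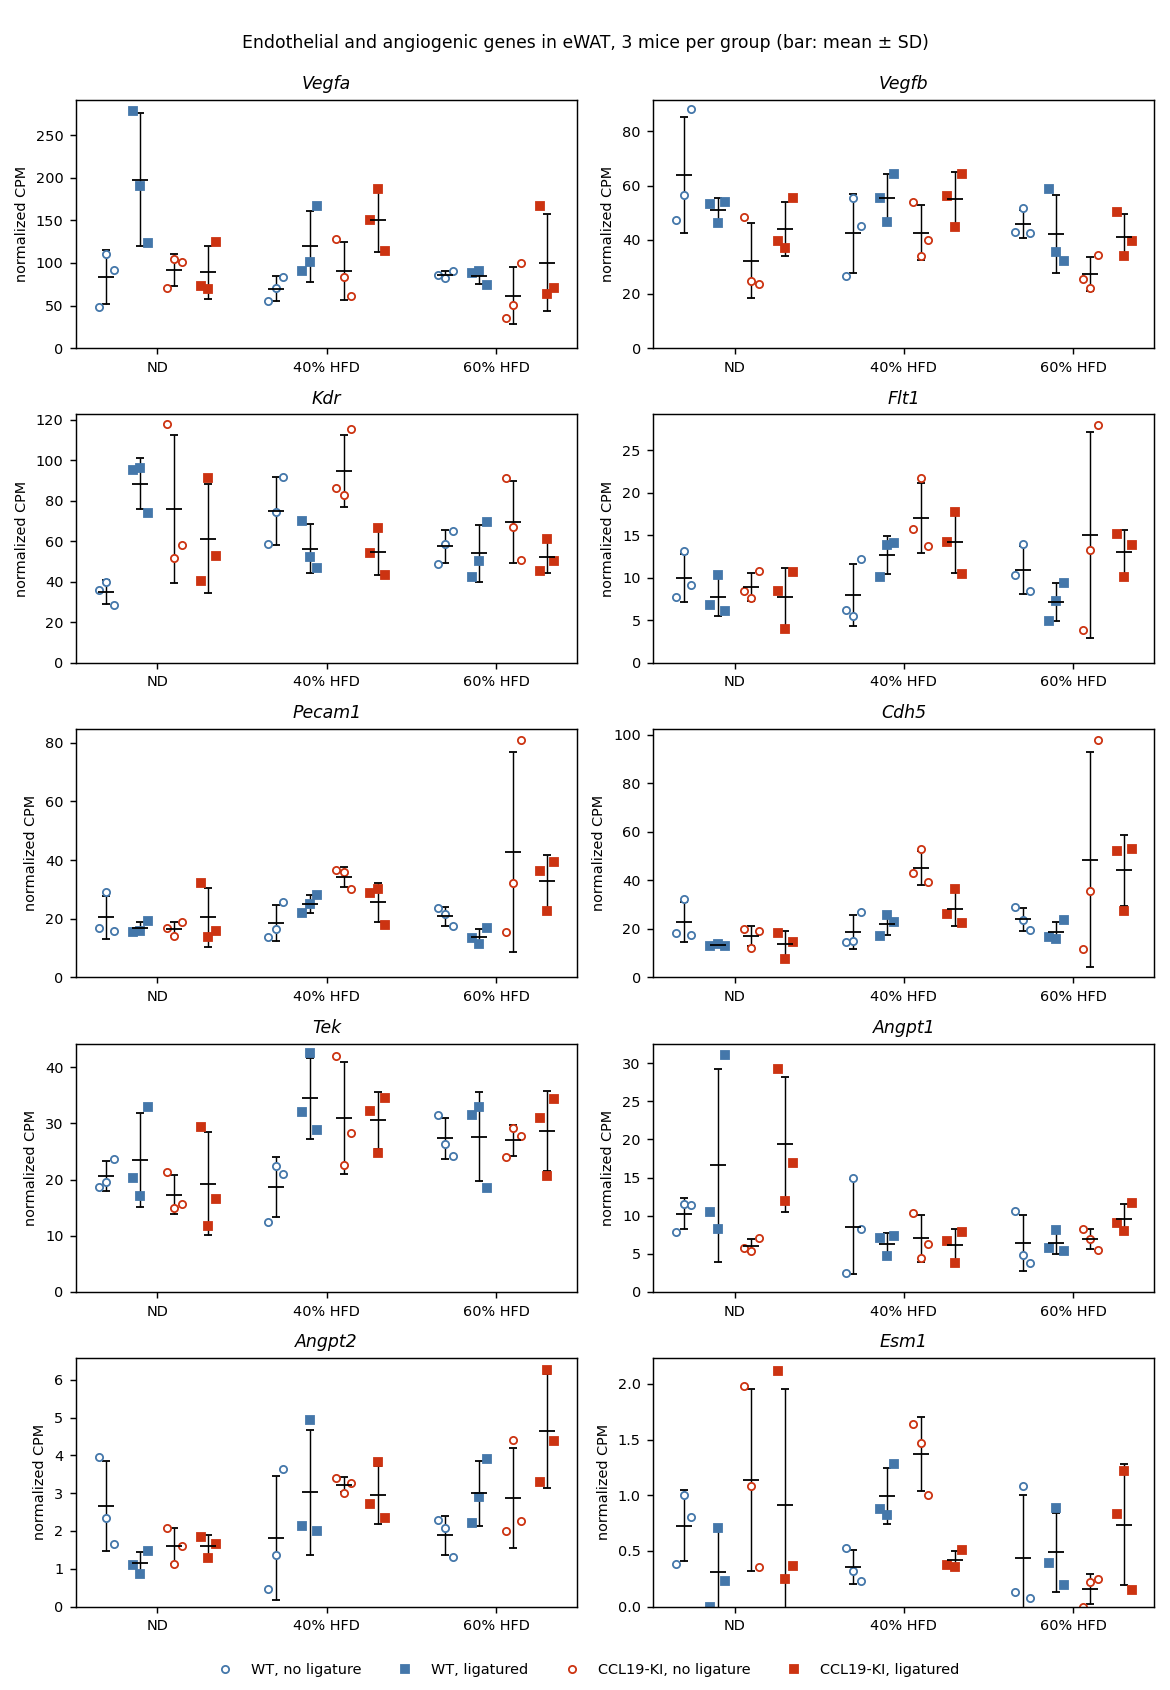
Normalized CPM (y axes, linear, from 0) of each of the 10 genes in every mouse, by diet (x axis), genotype (color) and ligature (filled squares); black bars are the mean ± SD of 3 mice and end at the axis where they would run below 0. *Cdh5* reached 97.6 in 1 mouse labelled CCL19-KI under the 60% HFD, and *Kdr* was lowest in the ND-fed WT mice without ligature (28.4 to 40.0).

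Among these genes, the diet comparisons gave calls and the averaged genotype and ligature comparisons gave none. In the comparison of all 12 mice of a diet with the 12 fed the ND, averaged over genotype and ligature, *Cdh5*, *Tek* and *Angpt2* rose under the 60% HFD, that is, 3 of 10 genes passed an adjusted p of 0.05 (limma, Benjamini-Hochberg over all genes tested), against 18.6% of all genes (10.2% higher). For the 40% HFD, *Cdh5* and *Tek* rose and *Angpt1* fell, 3 of 10 against 9.21% of all genes (5.36% higher and 3.85% lower). Between the 60% and the 40% HFD, none of the 10 passed, against 0.745% of all genes; 1 had an unadjusted p below 0.05, and edgeR also called 0. The 2 HFD comparisons share their ND mice. For CCL19-KI against WT mice none passed, against 0.459% of all genes, with 3 at an unadjusted p below 0.05 and 0 by edgeR, and for ligature none passed, against 0.325%, with 1 at an unadjusted p below 0.05 and 0 by edgeR. When the 2 libraries that went against their labels were left out, 2 passed for the 60% HFD (15.0% of all genes), 2 for the 40% HFD (7.90%), 1 for genotype (7.35%), 0 for ligature (0.358%) and 0 between the HFDs (1.52%). The number of all genes called for genotype was 82 with the 2 libraries and 1292 without them. Within single strata, 2 of 60 genotype values (10 genes in 6 diet and ligature states) passed, as did 1 of 60 ligature values and 3 of 80 diet values, against 5.73%, 2.29% and 5.02% of the values of all genes. An unadjusted p below 0.05 was reached by 13, 7 and 25 of them. The share of all genes at that unadjusted p is not given, here or for the interactions below. Such counts are therefore not read as results about the 10 genes.

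**Figure D2:**
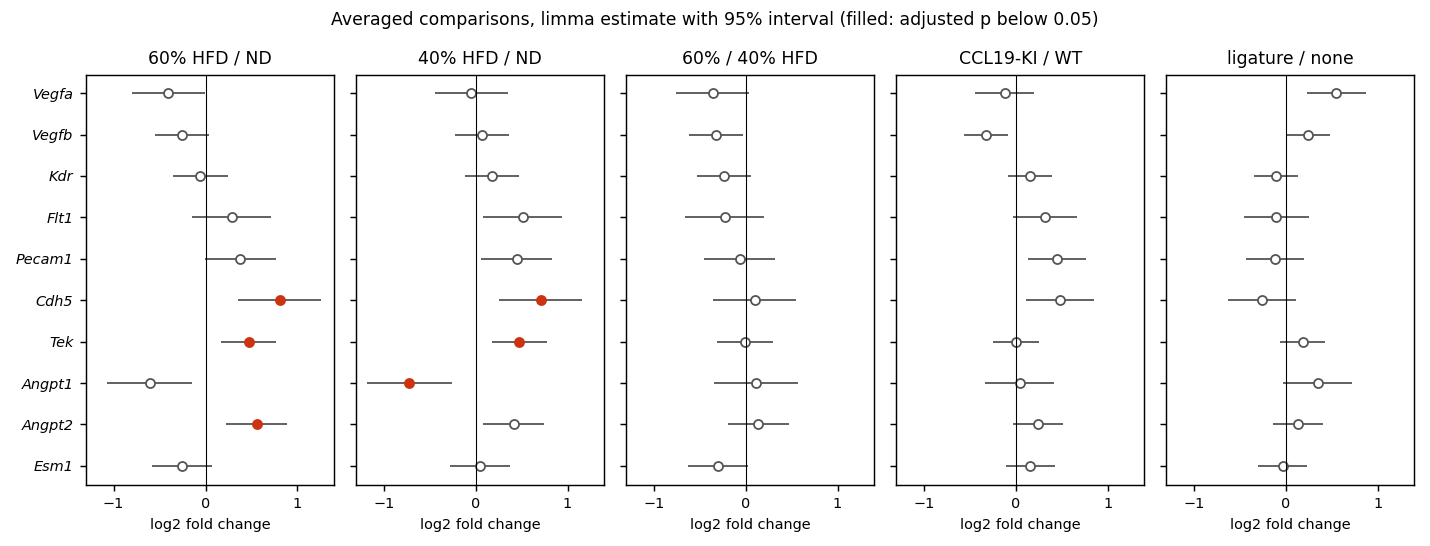
Estimates of the log2 fold change on the scale of log2(normalized CPM + 1) (x axes) with 95% intervals for the 10 genes (y axis) in the 5 averaged comparisons, with all 36 libraries under their labels. Filled points passed an adjusted p of 0.05: *Cdh5*, *Tek* and *Angpt2* for the 60% HFD, and *Cdh5*, *Tek* and *Angpt1* for the 40% HFD.

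Among the ligands, *Vegfa* (ENSMUSG00000023951; chromosome 17, 46016993 to 46032369, minus strand of GRCm38) was highest in ND-fed ligatured WT mice, at 279, 190.4 and 123 normalized CPM. The ND-fed WT mice without ligature had 48.7, 110.2 and 91.6, so the 2 groups did not overlap. Their means were 197 ± 78.1 and 83.5 ± 31.6 (SD, n = 3), with a log2 fold change of 1.23 and an adjusted p of 0.0514 (limma), just short of the threshold, and without the library of this group that went against its label (110.2) it was 1.47 (0.0193, in the fit of 34 libraries). With all 36 libraries, 6.73% of all genes were called between these WT groups and 14.2% were higher without overlap. In the fit of 34 libraries, 10.8% were called. In ND-fed CCL19-KI mice, *Vegfa* was 70.4, 105 and 101 without ligature and 73.4, 69.1 and 125 with it, and the groups overlapped. WT mice under the 40% HFD had 55.4, 70.3 and 83.9 without and 90.5, 101 and 167 with ligature, without overlap. Of all genes, 7.88% were higher without overlap there and 0% were called. CCL19-KI mice under the 40% HFD had 128, 83.7 and 60.7 without and 150.0, 187 and 113 with ligature, with overlap.

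Over all 18 ligatured mice, *Vegfa* ranged from 63.9 to 279 (median 107), and over the 18 without ligature from 34.9 to 128 (median 83.8). The means were 124 ± 57.0 and 80.7 ± 24.3, and the averaged log2 fold change was 0.55 (SE 0.16, adjusted p = 0.11, limma). In the fit of 34 libraries it was 0.66 with an adjusted p of 0.05, and without the 3 libraries with an epididymis score over 4 it was 0.70 and passed (adjusted p = 0.00837). Under the 60% HFD, *Vegfa* was 85.8, 82.5 and 90.4 in WT mice without ligature and 87.8, 91.0 and 74.3 in those with it, the narrowest groups for this gene. In CCL19-KI mice under the 60% HFD it was 34.9, 50.4 and 99.9 without ligature, the last being the library that went against its label, and 166, 63.9 and 71.2 with it. The 60% HFD against the ND gave a log2 fold change of -0.40 (adjusted p = 0.135) and against the 40% HFD of -0.36 (adjusted p = 0.437, limma), and in the fit of 34 libraries these were -0.45 (0.103) and -0.46 (0.206).

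*Vegfb* (ENSMUSG00000024962; chromosome 19, 6982473 to 6987651, minus strand), a ligand of VEGFR1, was 47.1, 56.6 and 88.1 in ND-fed WT mice without ligature and 48.5, 24.7 and 23.8 in the CCL19-KI mice of the same diet. The values overlapped through the highest CCL19-KI mouse. The log2 fold change was -0.99 (adjusted p = 0.0210, limma), in a comparison that called 16.6% of all genes (19.5% in the fit of 34 libraries), and -1.05 (0.0249) without the library of the WT group that went against its label, which had 56.6. It was lost without WT replicate 3, CCL19-KI replicate 2 or CCL19-KI replicate 3 (adjusted p up to 0.127). The adipocyte score moved with *Vegfb* (r = 0.86 over 36 libraries), and with it as a covariate the log2 fold change was -0.08 (adjusted p = 0.861), or -0.11 (0.802) with *Adipoq* left out of the score. With the hepatocyte score, 1.55 to 1.63 in these WT mice and 5.36 to 10.9 in the CCL19-KI mice, it was -0.43 (adjusted p = 0.512). Averaged over diets and ligature, *Vegfb* ranged from 26.7 to 88.1 in WT mice (median 49.4) and from 22.1 to 64.2 in CCL19-KI mice (median 39.4), with a log2 fold change of -0.32 (adjusted p = 0.164) and, without the 2 libraries, -0.36 (0.0665). It was 0.01 with the adipocyte score as a covariate and -0.08 (adjusted p = 0.505) with that score taken without *Adipoq*. Under the 60% HFD without ligature, the WT mice had 42.8, 51.7 and 42.6 and the CCL19-KI mice 25.5, 22.1 and 34.5, without overlap (log2 fold change -0.74, adjusted p = 0.0741), and -0.91 (adjusted p = 0.0496) without the library that went against its label, which had 34.5. Of all genes, 16.8% were called there (17.8% in the fit of 34 libraries) and 16.3% were lower without overlap.

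*Angpt1* (ENSMUSG00000022309; chromosome 15, 42424723 to 42676977, minus strand) encodes the ligand that activates TIE2. Over the 12 mice of a diet it ranged from 5.40 to 31.1 (median 10.9) under the ND, from 2.48 to 15.0 (median 6.82) under the 40% HFD and from 3.84 to 11.7 (median 7.52) under the 60% HFD. The ranges overlapped, and the highest values were in ligatured ND-fed mice, 31.1 in a WT and 29.2 in a CCL19-KI mouse. *Angpt1* fell by 0.72 on the log2 scale under the 40% HFD (means 7.01 ± 3.32 and 13.1 ± 8.59, adjusted p = 0.0418, limma), and the log2 fold change under the 60% HFD was -0.61 (adjusted p = 0.0564, and -0.55 and 0.123 without the 2 libraries that went against their labels), which passed without any 1 of 6 mice (down to 0.0303, without a WT mouse of the 40% HFD without ligature, replicate 1). The call for the 40% HFD held in 20 of the 36 fits that left out 1 mouse (adjusted p 0.0119 to 0.0870), and without the 2 libraries that went against their labels the log2 fold change was -0.70 (adjusted p = 0.0678). Skeletal muscle markers moved with it. Of 8 such markers, 6 were lower under the 40% HFD and 2 under the 60% HFD, their summed level was 40.1 to 549 normalized CPM under the ND, 19.7 to 124 under the 40% HFD and 29.2 to 158 under the 60% HFD, and *Angpt1* rose and fell with their score (Pearson r = 0.62, permutation p = 0.00025, 36 libraries). *Myh4* had no reads in 18 libraries and *Ckm* in 10, and the part of muscle RNA in the result was not tested. In ND-fed CCL19-KI mice, *Angpt1* was 5.76, 5.40 and 7.02 without ligature and 29.2, 12.0 and 16.9 with it, without overlap (log2 fold change 1.44, adjusted p = 0.0884, limma). There, 1.37% of all genes were called and 11.1% were higher without overlap. Ligatured CCL19-KI mice under the 40% HFD had 6.62, 3.82 and 7.89, below all of the ligatured ND-fed ones (log2 fold change -1.47, adjusted p = 0.0530, and 0.0430 without the 2 libraries that went against their labels), in a comparison that called 4.92% of all genes and had 14.1% lower without overlap. Without the 2 libraries, that comparison called 9.55% of all genes.

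*Angpt2* (ENSMUSG00000031465; chromosome 8, 18690263 to 18741562, minus strand), the context-dependent antagonist, was low, and its values in the 12 mice of a diet were 0.861 to 3.97 (median 1.62) under the ND, 0.451 to 4.93 (median 2.86) under the 40% HFD and 1.31 to 6.27 (median 2.58) under the 60% HFD. It rose by a log2 fold change of 0.55 under the 60% HFD (means 3.11 ± 1.41 and 1.75 ± 0.815, adjusted p = 0.0206, limma). The call held in 36 of 36 fits that left out 1 mouse and without the 2 libraries that went against their labels (0.57, adjusted p = 0.0326). Without the 3 libraries with an epididymis score over 4 it was 0.46 (adjusted p = 0.0956). For the 40% HFD the log2 fold change was 0.41 (adjusted p = 0.102, and 0.40 and 0.142 without the 2 libraries), and it passed without 40% HFD WT without ligature replicate 1 (0.51, adjusted p = 0.0379). The rise stood out in ligatured CCL19-KI mice, which had 3.29, 6.27 and 4.40 under the 60% HFD against 1.85, 1.29 and 1.65 under the ND, without overlap (log2 fold change 1.09, adjusted p = 0.0303, limma, and 0.0258 in the fit of 34 libraries, which called 19.6% of all genes there). In that comparison, 12.8% of all genes were called and 19.2% were higher without overlap. The call was lost without ND replicate 2 or 3 or 60% HFD replicate 2 or 3 (adjusted p up to 0.123), and it was also lost, with a larger estimate, with the hepatocyte (log2 fold change 1.19, adjusted p = 0.0559) or the mesothelial score (1.25, 0.0726) as a covariate. In ligatured WT mice, *Angpt2* was 2.20, 2.89 and 3.91 against 1.10, 0.861 and 1.47, likewise without overlap (log2 fold change 0.89, adjusted p = 0.136), where 2.57% of all genes were called and 19.2% were higher without overlap.

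Among the receptors, *Kdr* (ENSMUSG00000062960; chromosome 5, 75932827 to 75978458, minus strand) was set apart by a single group. ND-fed WT mice without ligature had 36.1, 40.0 and 28.4 normalized CPM, the second being the library that went against its label. The ligatured mice of the same diet and genotype had 95.2, 96.1 and 73.8, the ND-fed CCL19-KI mice without ligature 118, 51.6 and 58.2, and the WT mice without ligature under the 40% HFD 58.5, 74.2 and 91.9. None of these 3 groups overlapped the first.

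*Kdr* was thus higher with ligature in ND-fed WT mice (88.3 ± 12.6 against 34.8 ± 5.91, log2 fold change 1.32, adjusted p = 0.00976, limma), where 6.73% of all genes were called, and 14.2% were higher and 15.3% lower without overlap. *Vegfa* and *Kdr* were the 2 of the 10 that were higher without overlap there, and *Cdh5* and *Angpt2* the 2 that were lower. The call for *Kdr* was lost without ligatured replicate 1 or 2 (adjusted p up to 0.0743). It was also higher in CCL19-KI than in WT mice under the ND without ligature (log2 fold change 1.02, adjusted p = 0.0200), where 13.4% of all genes were higher without overlap, and higher under the 40% HFD than under the ND in WT mice without ligature (1.07, adjusted p = 0.0273), where 6.03% of all genes were called and 10.8% were higher without overlap. The genotype difference was lost without WT replicate 3 or CCL19-KI replicate 1 or 3 (adjusted p up to 0.0909), and the diet difference without ND replicate 1 or 3 or 40% HFD replicate 1 or 3 (up to 0.103). The 3 log2 fold changes without the 2 libraries that went against their labels were 1.43, 1.12 and 1.18 (adjusted p = 0.00727, 0.0184 and 0.0266). In that fit, these comparisons called 10.8%, 19.5% and 8.07% of all genes. These comparisons share the low group and are not separate evidence. The libraries of that group also had the lowest hepatocyte scores of any group, 1.55 to 1.63. With this score as a covariate the 3 log2 fold changes were larger, 1.53, 1.25 and 1.35 (limma, adjusted p = 0.0257, 0.0843 and 0.673). Their mesothelial scores were 5.68 to 6.10, below all 3 groups compared without overlap. Those were 7.28 to 7.52 with ligature, 6.30 to 7.88 in CCL19-KI mice and 6.33 to 7.26 under the 40% HFD. With the mesothelial score as a covariate, the ligature difference was 0.87 and did not pass (limma, adjusted p = 0.066). The genotype and diet differences were then 0.73 and 0.80 and passed (0.0485 and 0.0431). With the adipocyte score the ligature difference was 1.31 and passed (0.00768), and the genotype and diet differences were 0.93 and 1.01 and did not (0.256 and 0.165).

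In the other direction, *Kdr* was 54.3, 66.5 and 43.3 in ligatured CCL19-KI mice under the 40% HFD and 86.1, 82.9 and 115 in those without ligature, lower without overlap (log2 fold change -0.79, unadjusted p = 0.0113, adjusted p = 1, limma). There, *Kdr*, *Pecam1*, *Cdh5* and *Esm1* were all lower without overlap, 4 of 10 genes against 3.75% of all genes, and 0 of the 10 passed the adjusted p, as did 0% of all genes. The effect of the ligature on *Kdr* under the 40% HFD differed from that under the ND by -1.11 (unadjusted p = 0.000681, adjusted p = 0.173), and that in CCL19-KI mice from that in WT mice by -0.75 (0.00352 and 0.319). In the fit of 34 libraries these were -1.16 (adjusted p = 0.0563) and -0.86 (0.0877). Not one of the 50 interaction values (10 genes in 5 interactions) passed, while 11 had an unadjusted p below 0.05, and edgeR called 0. Of all genes, 0.476% passed for the genotype effect under the 60% HFD against the ND, 0% for that under the 40% HFD, 0.00560% for genotype by ligature, 0% for ligature under the 60% HFD and 0.00560% for ligature under the 40% HFD.

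*Flt1* (ENSMUSG00000029648; chromosome 5, 147561604 to 147726011, minus strand) ranged from 3.93 to 13.1 under the ND (median 8.43), from 5.54 to 21.7 under the 40% HFD (median 13.8) and from 3.86 to 27.9 under the 60% HFD (median 10.2). The highest and the lowest of the 60% HFD were both from CCL19-KI mice without ligature, which had 3.86, 13.3 and 27.9, the last being the library that went against its label. The log2 fold change for the 40% HFD was 0.51 (adjusted p = 0.115, limma), 0.56 (0.0547) without the 2 libraries that went against their labels, and it passed without the library labelled 60% HFD, CCL19-KI, without ligature, replicate 1 (0.51, adjusted p = 0.0441), which lies outside the groups compared. For CCL19-KI against WT mice it was 0.32 (adjusted p = 0.343), or 0.25 (0.291) without the 2 libraries, with 4.86 to 14.1 in WT and 3.86 to 27.9 in CCL19-KI mice.

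*Tek* (ENSMUSG00000006386; chromosome 4, 94739289 to 94874976, plus strand), the angiopoietin receptor, rose under both HFDs by a similar amount. It was 11.7 to 33.0 under the ND (median 19.1), 12.5 to 42.6 under the 40% HFD (median 28.5) and 18.6 to 34.3 under the 60% HFD (median 28.5). The means were 20.2 ± 6.09, 28.7 ± 8.74 and 27.7 ± 5.00, with log2 fold changes against the ND of 0.47 (adjusted p = 0.0409) for the 40% HFD and 0.47 (adjusted p = 0.0284, limma) for the 60% HFD. Without the 2 libraries that went against their labels they were 0.47 (adjusted p = 0.0647) and 0.45 (0.0572), the same size but above the threshold. The 60% HFD call also went without any 1 of 6 mice, ND ligatured WT replicate 2, ND ligatured CCL19-KI replicate 2, 60% HFD WT without ligature replicate 1, 60% HFD ligatured WT replicate 1 or 2, or 60% HFD ligatured CCL19-KI replicate 1 (adjusted p 0.0503 to 0.0628), and the 40% HFD call held in 19 of 36 such fits. Over the 36 libraries *Tek* rose and fell with the adipocyte score (Pearson r = 0.59, Spearman rho 0.53, permutation p = 0.0002 and 0.0013, adjusted p = 0.00247 and 0.0117) and the macrophage score (r = 0.48, rho 0.48, permutation p = 0.00345 and 0.00329, adjusted p = 0.0223 and 0.0256). Without the 2 farthest libraries r was 0.47 and 0.44, and within groups it was 0.60 and 0.48. With the adipocyte score as a covariate *Tek* was 0.45 for the 60% HFD (adjusted p = 0.0103) and 0.35 for the 40% HFD (0.0664), and the part of macrophage RNA was not tested. For genotype, *Tek* gave a log2 fold change of 0.00 (95% interval -0.24 to 0.25) and, of the 10 genes, lay closest to 0. WT mice under the 40% HFD had 12.5, 22.4 and 21.1 without and 32.1, 42.6 and 28.8 with ligature, without overlap (log2 fold change 0.88, unadjusted p = 0.00604, adjusted p = 0.245). There, *Vegfa*, *Tek* and *Esm1*, 3 of 10 genes, were higher without overlap, against 7.88% of all genes, and none passed the adjusted p (0% of all genes).

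VE-cadherin holds endothelial junctions, and its gene *Cdh5* (ENSMUSG00000031871; chromosome 8, 104101625 to 104144511, plus strand) had the largest rise of the 10 genes under either HFD. It was 7.74 to 32.3 under the ND (median 16.1), 14.6 to 52.7 under the 40% HFD (median 25.8) and 11.8 to 97.6 under the 60% HFD (median 25.4). The ND and HFD ranges overlapped, and the highest ND value, 32.3, and the highest of all, 97.6, both came from the libraries that went against their labels. The means were 33.7 ± 24.0 under the 60% HFD and 16.6 ± 6.10 under the ND (n = 12), a log2 fold change of 0.81 (SE 0.22, adjusted p = 0.0138, limma), and without those 2 libraries 27.9 ± 13.8 and 15.2 ± 3.74 (n = 11), a log2 fold change of 0.69 (adjusted p = 0.0121). The call held in 36 of 36 fits that left out 1 mouse. Under the 40% HFD, the mean was 28.4 ± 11.9 and the log2 fold change 0.71 (adjusted p = 0.0423), or 0.78 (0.0111) without the 2 libraries, and the call held in 19 of 36 such fits (adjusted p 0.0125 to 0.0907).

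The stratum in which *Cdh5* passed was that of ligatured CCL19-KI mice. In these mice it was 51.9, 27.2 and 53.0 under the 60% HFD and 18.4, 7.74 and 14.6 under the ND, without overlap (44.1 ± 14.6 against 13.6 ± 5.39, log2 fold change 1.64, adjusted p = 0.0180, limma). In that comparison, 12.8% of all genes were called and 19.2% were higher without overlap. The call for *Cdh5* was lost without ND replicate 2 or 60% HFD replicate 1 or 3 (adjusted p up to 0.121). With the mesothelial score as a covariate its log2 fold change was 0.83 (limma, adjusted p = 0.285). Without the 2 libraries that went against their labels, which lie outside these groups, the adjusted p was 0.00212, and 19.6% of all genes were called. Ligatured CCL19-KI mice under the 40% HFD had 26.0, 36.2 and 22.5, above the ND without overlap (log2 fold change 1.05, adjusted p = 0.150, and 0.0461 without the 2 libraries), as were 14.7% of all genes. This comparison called 4.92% of all genes, and 9.55% without the 2 libraries. In ligatured WT mice, *Cdh5* was 16.6, 15.8 and 23.4 under the 60% HFD and 13.1, 13.7 and 12.8 under the ND, also without overlap. The log2 fold change was 0.45 (limma, adjusted p = 0.621), where 2.57% of all genes were called and 19.2% were higher without overlap. In CCL19-KI mice without ligature *Cdh5* was 42.8, 52.7 and 39.4 under the 40% HFD and 19.9, 12.1 and 19.0 under the ND, without overlap (log2 fold change 1.37, unadjusted p = 0.00438, adjusted p = 0.431). In that comparison *Flt1*, *Pecam1*, *Cdh5*, *Tek* and *Angpt2*, 5 of 10 genes, were higher without overlap, against 5.47% of all genes, and none passed the adjusted p (0% of all genes). The genotype effect under the 60% HFD exceeded that under the ND by 1.06 for *Cdh5* (adjusted p = 0.161) and 0.96 for *Pecam1* (0.136), and without the library labelled 60% HFD, CCL19-KI, without ligature, replicate 1 both passed (1.43 and 1.24, adjusted p = 0.0335 and 0.0391). In the fit of 34 libraries they were 0.56 (adjusted p = 0.337) and 0.53 (0.281). The omitted replicate 1 had the lowest *Cdh5* of its group, 11.8 beside 35.7 and 97.6, of which 97.6 is the library that went against its label.

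*Pecam1* (ENSMUSG00000020717; chromosome 11, 106654217 to 106750628, minus strand), which encodes an adhesion molecule of endothelial cells, platelets and leukocytes, varied with *Cdh5*. It ranged from 11.4 to 29.0 in the 18 mice labelled WT (median 17.1) and from 13.8 to 81.1 in the 18 labelled CCL19-KI (median 29.4), with overlap. The means were 19.3 ± 5.22 and 28.8 ± 15.8, and the log2 fold change was 0.45 (SE 0.15, unadjusted p = 0.00682, adjusted p = 0.142, limma). Without the 2 libraries that went against their labels, which held the highest value of each genotype (29.0 and 81.1), the means were 18.7 ± 4.77 and 25.7 ± 9.12 (n = 17), and *Pecam1* was higher in CCL19-KI mice by a log2 fold change of 0.39 (adjusted p = 0.0472). Without the 3 libraries with an epididymis score over 4 it was 0.31 (adjusted p = 0.0898). *Cdh5* differed by 0.48 (adjusted p = 0.175), by 0.41 (0.0736) without the 2 libraries, and by 0.61 (0.0471) without the library labelled 60% HFD, CCL19-KI, without ligature, replicate 1. For the 40% HFD against the ND, *Pecam1* differed by 0.45 (adjusted p = 0.127) and passed without the 2 libraries (0.51, adjusted p = 0.0333). For the 60% HFD it differed by 0.38 (adjusted p = 0.150), by 0.29 (0.183) without the 2 libraries, and passed without the library labelled 60% HFD, CCL19-KI, without ligature, replicate 1 (0.52, adjusted p = 0.0238).

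Under the 40% HFD without ligature, more of the 10 genes separated the genotypes without overlap than in the other 5 strata. *Pecam1* was 36.6, 35.8 and 30.3 in CCL19-KI and 13.8, 16.5 and 25.6 in WT mice, and *Cdh5* was 42.8, 52.7 and 39.4 against 14.6, 15.0 and 26.8. *Flt1* was 15.7, 21.7 and 13.7 against 6.16, 5.54 and 12.2. With *Tek* and *Esm1*, 5 of 10 genes were higher in CCL19-KI mice without overlap, against 7.49% of all genes, and 0.00560% of all genes passed. The log2 fold changes of *Cdh5*, *Flt1*, *Pecam1*, *Esm1* and *Tek* were 1.26, 1.06, 0.88, 0.80 and 0.70, with unadjusted p of 0.00816 to 0.0260 and an adjusted p of 0.713 for each (limma). The score of the 20 endothelial identity genes was 3.31 to 3.40 in these CCL19-KI and 2.60 to 3.27 in these WT mice. *Flt1*, *Pecam1* and *Cdh5* varied together over the libraries (Pearson r 0.83 to 0.90). Counts that hold several of them, here and in other strata, are therefore not counts of separate results. In ligatured mice under the 60% HFD, *Flt1*, *Pecam1* and *Cdh5*, 3 of 10 genes, were higher in CCL19-KI mice without overlap, against 7.17% of all genes, and none passed (0.0112% of all genes). For *Pecam1*, these mice had 36.2, 22.5 and 39.5 against 13.5, 11.4 and 16.8 (log2 fold change 1.16, unadjusted p = 0.00464, adjusted p = 1). Neither of the 2 libraries that went against their labels belongs to these 4 groups, and in the fit without them the 5 adjusted p under the 40% HFD were 0.329 to 0.536.

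*Esm1* (ENSMUSG00000042379; chromosome 13, 113209659 to 113218098, plus strand) was near the limit of detection, with 0 to 42 reads and 0 to 2.12 normalized CPM in a library. Under the 40% HFD it was 0.526, 0.322 and 0.227 in WT mice without ligature and 0.878, 0.822 and 1.28 with it, while CCL19-KI mice had 1.64, 1.47 and 1.00 without and 0.376, 0.354 and 0.512 with ligature. The ligatured WT mice thus lay above and the ligatured CCL19-KI mice below their counterparts without ligature, each without overlap, at 3 to 27 reads per library. The CCL19-KI mice without ligature under the 60% HFD, with 0, 0.216 and 0.245, had the lowest mean, 0.154 ± 0.134. Across the averaged comparisons *Esm1* passed in none, and its largest log2 fold change was -0.31 for the 60% against the 40% HFD (adjusted p = 0.420, limma, and -0.32 and 0.363 without the 2 libraries). *Vegfb* was -0.25 for the 60% HFD (adjusted p = 0.205), -0.32 for the 60% against the 40% HFD (0.316) and 0.24 for ligature (0.310), and -0.31 (0.160), -0.37 (0.217) and 0.26 (0.301) without the 2 libraries. *Angpt2* for genotype was 0.25 (adjusted p = 0.347) and 0.26 (0.254) without them, and *Angpt1* for ligature 0.35 (0.350) and 0.34 (0.397). The remaining values of the 10 genes in the averaged comparisons, 26 of 50 with an unadjusted p of at least 0.1, lay between -0.26 and 0.28 on the log2 scale.

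In 9 further lists of vessel genes with 82 genes tested, 15 (18.3%) passed under the 60% HFD, 11 higher and 4 lower, against 18.6% of all genes, and 10 (12.2%) under the 40% HFD, all higher, against 9.21%. The calls in single lists, given next, are a description read against these shares. Without the 2 libraries that went against their labels they were 10 (12.2%, against 15.0% of all genes) and 11 (13.4%, against 7.90%). Of 20 endothelial identity genes, 3 passed under the 60% HFD, where *Cldn5*, a tight junction gene (log2 fold change 0.84, adjusted p = 0.0065, limma), and *S1pr1*, a sphingosine-1-phosphate receptor (0.44, 0.0129), were higher and *Esam*, a junction adhesion gene, was lower (-0.34, adjusted p = 0.0320). The median was 0.22, against 0.01 over all genes. Under the 40% HFD, *Cldn5*, *Robo4*, *Mmrn2* and *S1pr1*, 4 of the 20, were higher and none was lower (median 0.22, against -0.02). Of 8 capillary genes of adipose tissue, none passed in either comparison (medians 0.12 and 0.33).

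Among 6 other members of the VEGF family, the coreceptor *Nrp2* passed under the 60% HFD (0.44, adjusted p = 0.00742, limma) and its relative *Nrp1* under the 40% HFD (0.49, 0.00447), both higher. In a list of 5 genes drawn up for the angiopoietin axis, 1 passed under the 60% HFD. It was *Angptl4*, whose product is an inhibitor of lipoprotein lipase (0.69, limma, adjusted p = 0.00166). Under the 40% HFD, *Angptl4* (0.59, 0.0103) and *Ptprb*, a phosphatase that restrains TIE2 (0.79, 0.0396), were higher. Of 10 tip cell and Notch genes, *Aplnr*, the apelin receptor (0.94, adjusted p = 0.00425), and the Notch ligand *Dll4* (0.55, 0.0360) were higher under the 60% HFD and none passed under the 40% HFD. *Hif1a* and *Vldlr* of 11 hypoxia genes tested (12 listed) were higher under the 60% HFD, and *Epas1* under the 40% HFD. Of 8 angiostatic genes, the thrombospondin gene *Thbs1* was higher under the 60% HFD (0.76, adjusted p = 0.0333) and the 40% HFD (1.38, 0.00299), as was *Col18a1*, the source of endostatin (0.43, 0.0306, and 0.46, 0.0330), and *Sema3a* was lower under the 60% HFD. Under the 60% HFD, 1 of 6 lymphatic genes was lower, *Lyve1* (-0.89, adjusted p = 0.0278), and of 8 mural cell genes *Pdgfb* was higher and *Kcnj8* lower, while none of these 14 passed under the 40% HFD. The median log2 fold changes under the 60% and 40% HFD were 0.19 and 0.10 for the VEGF family and 0.38 and 0.38 for the angiopoietin list, which includes *Angptl4*. They were 0.19 and 0.11 for tip cell and Notch genes, 0.10 and 0.11 for hypoxia genes and 0.19 and 0.22 for angiostatic genes. For lymphatic genes they were -0.56 and -0.17, and for mural genes 0.16 and 0.14. None of the genes in these 9 lists passed for genotype, ligature or the 60% against the 40% HFD (limma), with all libraries kept, and the list medians lay between -0.05 and 0.26 for genotype and between -0.22 and 0.22 for ligature (-0.02 over all genes in both). Without the 2 libraries that went against their labels, 1 gene of the lists (*Clec14a*, lower) passed for the 60% against the 40% HFD, and 9 passed for genotype, where 7.35% of all genes did, with *Emcn*, *Robo4* and *Sox18* higher among the 20 identity genes, *Kcnj8* and *Notch3* higher among the 8 mural genes, *Hif1a*, *Bnip3* and *Pfkfb3* lower among the 11 hypoxia genes and *Rgcc* lower among the 8 capillary genes. Of the calls under the 60% HFD named above, those of *Dll4*, *Hif1a*, *Col18a1*, *Sema3a* and *Lyve1* were lost without these libraries. Under the 40% HFD, that of *Col18a1* was lost, and *Btnl9* of the capillary genes and *Dll4* passed, both higher.

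Markers of other cells moved with diet as well. Of 10 hepatocyte markers, 8 were higher under the 60% HFD (median log2 fold change 3.05) and 8 under the 40% HFD (3.84), and their summed level was 131 to 30821 normalized CPM under the ND, 1823 to 42165 under the 40% HFD and 929 to 42406 under the 60% HFD. Of the 10, 6 had reads in every library, *Alb* among them. Of 6 markers of liver sinusoidal endothelium, 2 were higher under the 60% HFD and 5 under the 40% HFD, and all 6 had reads in every library, with summed levels of 65.8 to 120.3 under the ND, 83.3 to 151 under the 40% HFD and 54.8 to 129 under the 60% HFD. Most of this sum was *Fcgr2b*, at 41.0 to 110 (median 73.3). The medians of the rest ran from 2.07 (*Oit3*) to 10.5 (*Stab2*). *Clec4g* had at most 3 reads in 5 libraries and *Oit3* in 3. With the hepatocyte score as a covariate none of the 10 genes passed for the 40% HFD, where *Cdh5*, *Tek* and *Angpt1* were 0.81, 0.63 and -0.61 (adjusted p = 0.124, 0.0640 and 0.291), and for the 60% HFD *Cdh5*, *Tek* and *Angpt2* still passed (0.0278, 0.0258 and 0.0437). Of 6 mesothelial markers, 2 were lower under the 60% HFD, with summed levels of 367 to 1932 under the ND, 252 to 1219 under the 40% HFD and 117 to 1308 under the 60% HFD. With the mesothelial score as a covariate, *Cdh5* and *Tek* were 0.48 and 0.50 for the 60% HFD (adjusted p = 0.133 and 0.0549) and 0.54 and 0.49 for the 40% HFD (0.0949 and 0.0575). Of 8 macrophage markers, all with reads in every library, *Adgre1* and *Cd68* were higher and *Cd163* lower under the 60% HFD and none passed under the 40% HFD, with summed levels of 861 to 3486 under the ND, 1119 to 2716 under the 40% HFD and 851 to 2839 under the 60% HFD. Of 10 kidney tubule markers, *Slc34a1*, *Kap* and *Slc22a6* were higher under the 60% HFD and none passed under the 40% HFD, with summed levels of 69.8 to 316, 50.7 to 407 and 28.9 to 520.0, and 3 of the 10 had reads in every library. The largest part of this sum was *Lrp2*, at 22.8 to 304 (median 123), and the medians of the rest were at most 5.46 (*Napsa*). Of 9 adipocyte markers *Lep* was higher and *Retn* lower under the 60% HFD, and 1 of 6 B cell and 1 of 6 pancreas markers were higher there. Beyond the covariate fits, the part of these cells in the diet results was not tested.

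**Figure D3:**
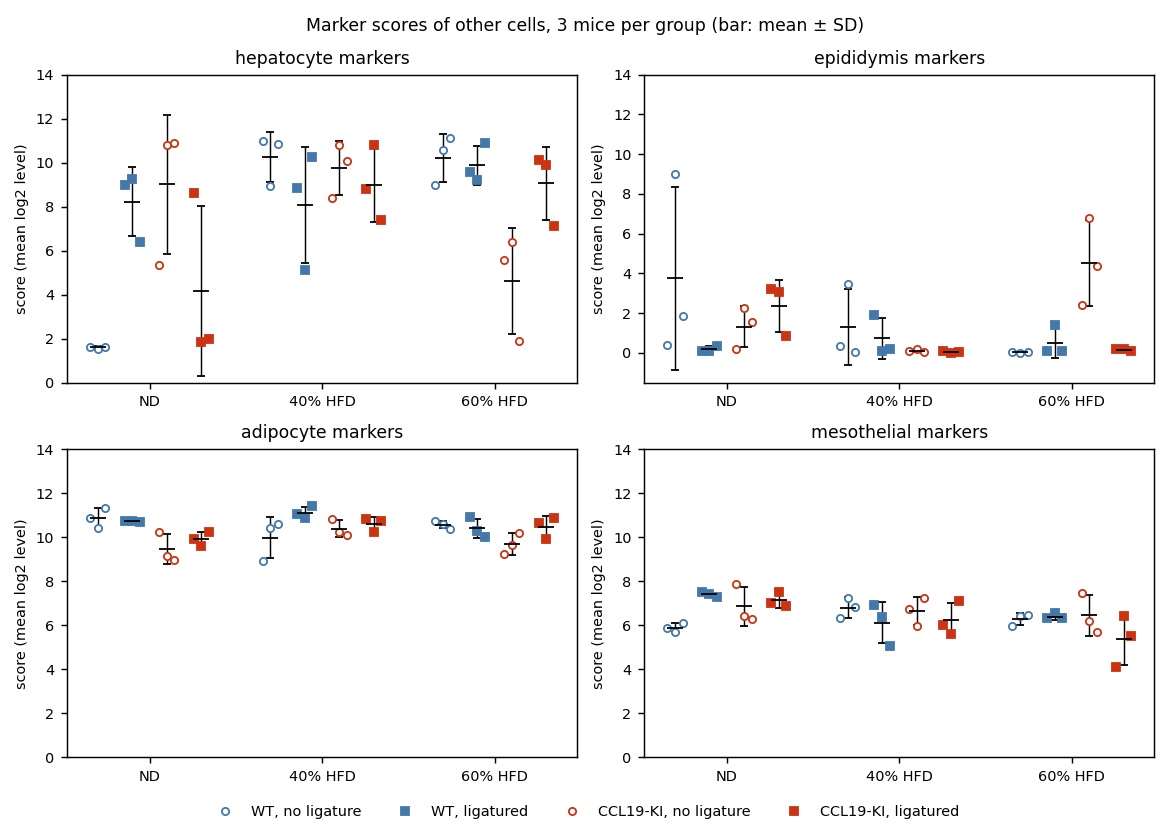
Scores of hepatocyte, epididymis, adipocyte and mesothelial markers (mean of log2(normalized CPM + 1), y axes) in every mouse by diet (x axis), genotype and ligature, with the mean ± SD of 3 mice. The hepatocyte score was 1.55 to 1.63 in ND-fed WT mice without ligature and up to 11.1 elsewhere, and the epididymis score was over 4 in 3 libraries.

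Over the 36 libraries, *Flt1*, *Pecam1* and *Cdh5* rose and fell together, and *Kdr* did not follow them. Of 185 correlations computed on the log2 scale, with p from 100000 permutations of libraries that share groups and depth differences, *Flt1* and *Cdh5* gave a Pearson r of 0.87 and a Spearman rho of 0.85, *Pecam1* and *Cdh5* 0.90 and 0.88, and *Flt1* and *Pecam1* 0.83 and 0.83. Each had p = 1e-05, the smallest the permutations can give (adjusted p = 0.000231 for r and 0.000206 for rho). Without the 2 libraries farthest from the median, r was 0.84, 0.85 and 0.80, without the 2 that went against their labels it was 0.84, 0.86 and 0.79, and within groups it was 0.91, 0.93 and 0.81. *Kdr* gave r = -0.10 with *Flt1* (permutation p = 0.557, rho -0.10), -0.06 with *Pecam1* (0.732, rho -0.07) and -0.10 with *Cdh5* (0.556, rho -0.13). With the score of the 20 endothelial identity genes, r was 0.94 for *Pecam1*, 0.84 for *Cdh5*, 0.78 for *Flt1*, 0.51 for *Tek* and -0.14 for *Kdr*.

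*Kdr* varied instead with the mesothelial score (r = 0.61, rho 0.64, permutation p = 0.0001 and 8e-05, adjusted p = 0.00168 and 0.00135). This r was 0.58 without the 2 farthest libraries, 0.59 without the 2 that went against their labels and 0.54 within groups. *Cdh5* and *Flt1* ran the other way, with r = -0.60 and -0.55 with that score. *Vegfb* varied with the adipocyte score (r = 0.86, rho 0.80, permutation p = 1e-05, 0.86 without the 2 farthest libraries and 0.85 within groups). *Angpt2* varied with *Cdh5* over all libraries (r = 0.60, rho 0.74, permutation p = 0.00011 and 1e-05), less so within groups (r = 0.29).

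**Figure D4:**
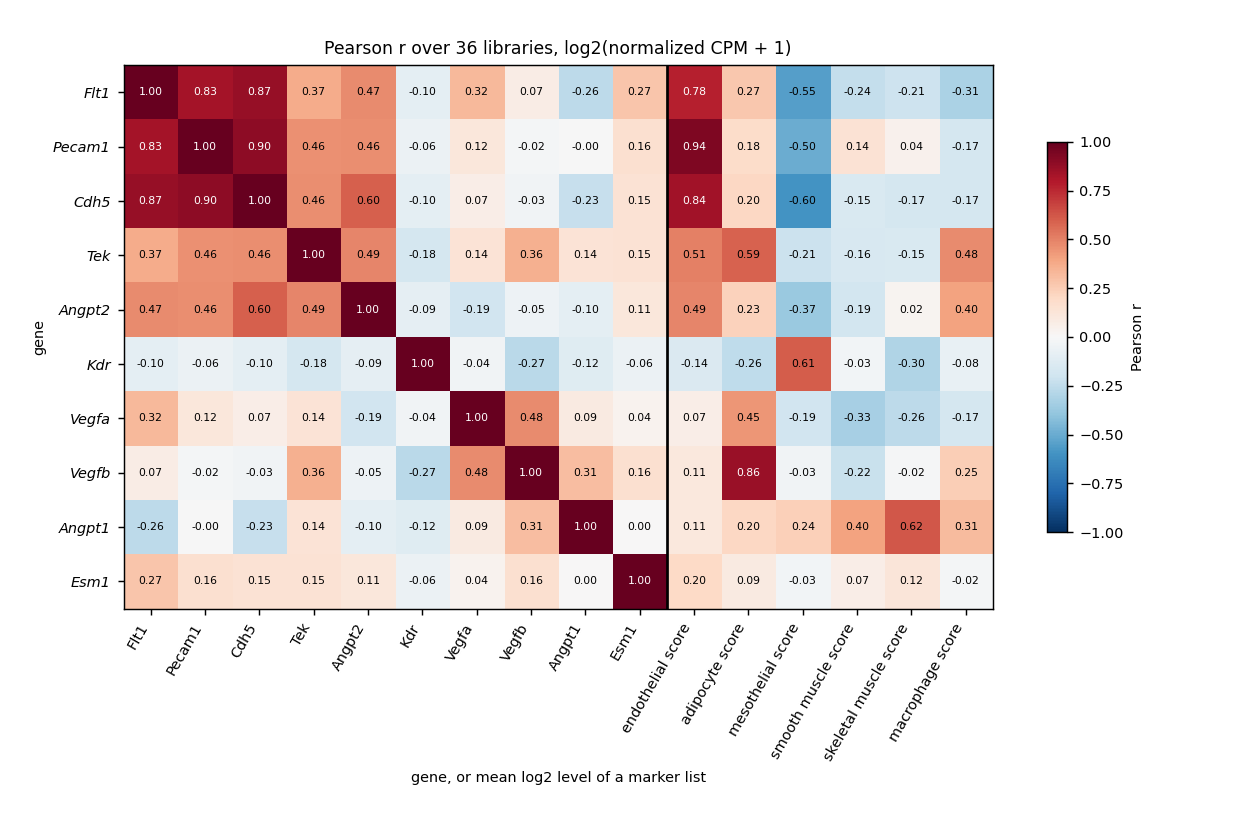
Pearson r over the 36 libraries between the 10 genes (rows, and columns left of the black line) and with marker scores (columns right of it), colored from -1 to 1. *Flt1*, *Pecam1* and *Cdh5* form a block of 0.83 to 0.90, and *Kdr* is at -0.18 to -0.04 with each of the other genes except *Vegfb* (-0.27), and at 0.61 with the mesothelial score.

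By likeness of pattern over the 36 libraries, the genes closest to the mean of *Kdr*, *Flt1*, *Pecam1*, *Cdh5* and *Tek* (each as a z score) were *Mmrn2* (Pearson r = 0.89), *Btnl9* (0.87), *Cldn5* (0.86), *Robo4* (0.85) and *Cd300lg* (0.83). *Mmrn2*, *Cldn5* and *Robo4* are known endothelial genes. Closest to *Vegfa* were *Sun2* (0.87), *Acacb* (0.83), *Cdc73* (0.81), *Ces1d* (0.81) and *Rab3gap1* (0.81), of which *Acacb* encodes an acetyl-CoA carboxylase and *Ces1d* a lipase of fat and liver. For *Kdr* alone the closest was *Dpp4* (0.79), and for *Vegfb* alone *Man2a2* (0.92), with the lipolysis genes *Lipe* and *Plin1* (0.89 each) among the first 5. The genes closest to *Cdh5*, *Flt1* and *Pecam1* alone all included *Robo4* and *Mmrn2*.

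**Figure D5:**
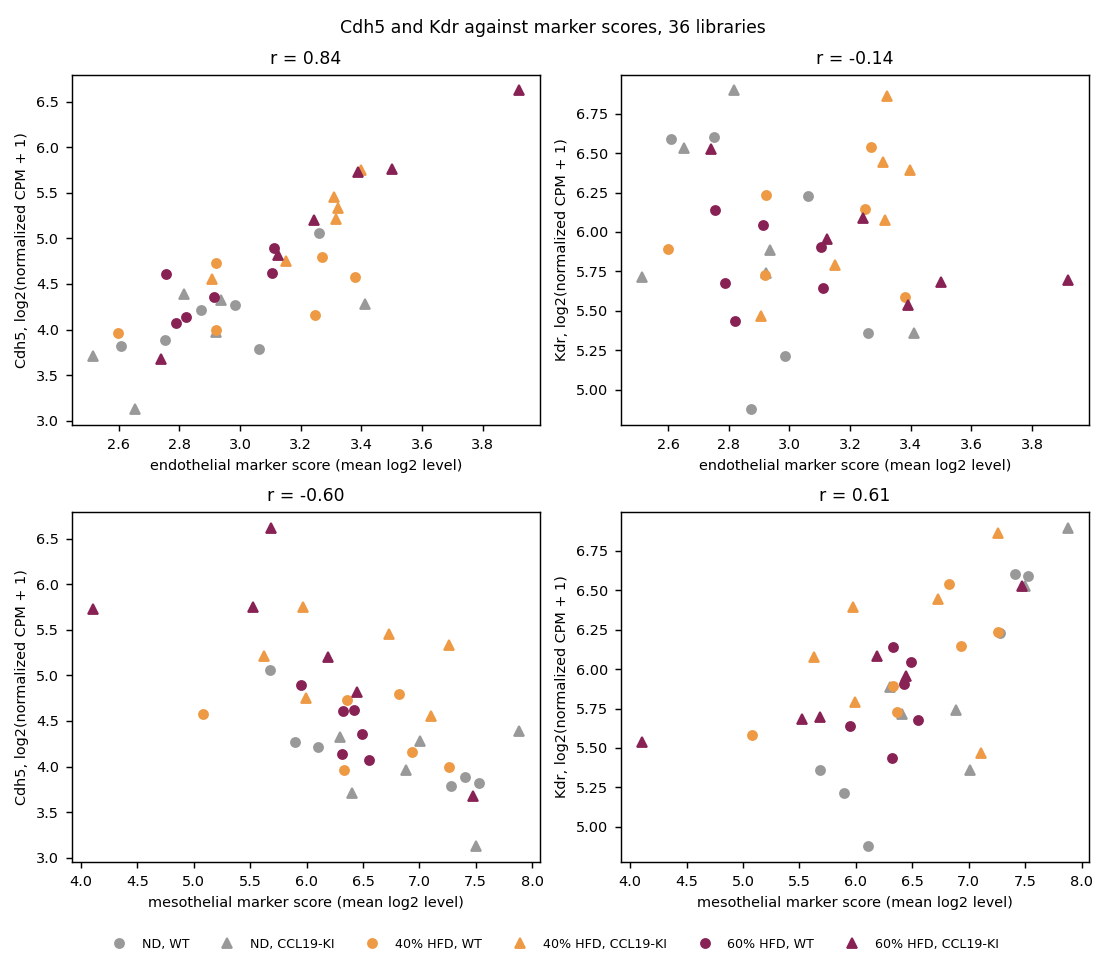
*Cdh5* (left) and *Kdr* (right), log2(normalized CPM + 1) on the y axes, against the endothelial (top) and mesothelial (bottom) marker scores on the x axes, 1 point per library, colored by diet and shaped by genotype. *Cdh5* rises with the endothelial score (r = 0.84) and *Kdr* does not (-0.14), and with the mesothelial score they run in opposite directions (-0.60 and 0.61).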

How the data were processed

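Bulk RNA-seq of eWAT from 36 mice was analysed. The authors trimmed reads with Trimmomatic (version 0.38), mapped them with Bowtie2 within RSEM (1.3.0) and deposited edgeR-normalized CPM, a signal scaled per library. The study's methods name mm10 and the submitters' processing notes GRCm39, and gene positions given here are from GENCODE M21 on GRCm38, matched by gene identifier. Values were whole multiples of 1 read for 100% of entries (tolerance 0.01), so reads were recovered, at 11962228 to 21581595 per library (median 15573273), and intervals and limits from reads cover counting error only. All 630 pairs of libraries differed by more than sampling noise (lowest chi-square per degree of freedom 15.8). WT and CCL19-KI mice were housed together per the study's methods. Which mice shared a cage or litter is not given in the sources used here, so p-values measure the spread between these mice.

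The 17852 of 24750 genes that reached 1 normalized CPM in 3 or more libraries were tested on log2(value + 1) with limma (3.58.1, R 4.3.3), with 1 mean per group for the 12 groups, and p-values were adjusted over all of them by the Benjamini-Hochberg method. Fold changes on this scale understate those of low genes. edgeR (4.0.16) on the recovered reads, which called 3108, 1865, 140, 90 and 68 genes for the 60% HFD, the 40% HFD, the 60% against the 40% HFD, genotype and ligature, was an alternative, as were other pseudocounts, filters and normalizations, gene-by-gene quality weights, the study's thresholds applied to limma's p (the study used edgeR's), marker scores as covariates, a replicate block and leaving out each mouse. The mesothelial, adipocyte and liver sinusoid covariates, the adipocyte covariate without *Adipoq*, the F test, the tests of differences between strata, and the omission of the libraries with epididymis RNA or against their labels were chosen after seeing the data. Scripts were tested on simulated data. Correlations and figures were made with Python (3.11.15), scipy (1.17.1) and matplotlib (3.10.9).

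The genes and lists were chosen with earlier results of these data known. Named were the 10 genes, up to 4 genes a list by smallest p, and the 5 genes most like the mean of 5 endothelial genes and the 5 most like *Vegfa*. The genes most like *Kdr*, *Vegfb*, *Cdh5*, *Flt1* and *Pecam1* alone, the genes named for the fit without 2 libraries, and the choice to give singly only averaged values with an unadjusted p below 0.1 were made after the values were seen.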

Additional observations from a re-analysis of the deposited data

Results flagged for a closer look

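In 5 pairs of strata the same contrast ran in opposite directions, with no overlap between the mice compared in either stratum, and each difference was tested in limma after the values had been seen. The pairs were picked by these same values, which the adjusted p does not allow for. Within the single strata of these pairs, 3.75% to 16.2% of all genes lay apart without overlap in the same direction. No share of all genes with such a pair is given. In WT mice, *Kdr* under the 40% HFD against the ND was 1.07 on the log2 scale without ligature and -0.65 with it, a difference of 1.72 (limma, adjusted p = 0.0317). For the 60% HFD against the ND these were 0.71 and -0.72, a difference of 1.43 (limma, adjusted p = 0.34). The ligature changed *Kdr* by 1.32 in ND-fed WT mice and by -0.79 in CCL19-KI mice under the 40% HFD, a difference of 2.11 (limma, adjusted p = 0.0609). All 3 contain the ND-fed WT mice without ligature (28.4 to 40.0 normalized CPM), 1 of which went against its label, and without the 2 libraries that did they were 1.83 (limma, adjusted p = 0.0172), 1.54 (0.164) and 2.21 (0.0364).

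*Esm1* under the 40% HFD was higher by 0.80 in CCL19-KI than in WT mice without ligature and lower with it (-0.49), a difference of 1.29 (limma, adjusted p = 1). The same 12 libraries read by ligature gave 0.55 in WT and -0.74 in CCL19-KI mice, again a difference of 1.29, which is the same interaction and not a separate result. The *Esm1* values rest on 3 to 27 reads per library.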

How the results depend on the processing

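The counts in this section are of the 10 genes, and for most settings the share of all genes called is not given. A count that changed is therefore not read as a result about these genes. Of the 10 genes, 3 passed for the 60% HFD. This count was 5 with sample quality weights or the adipocyte score as a covariate, 1 without the 3 libraries with an epididymis score over 4, and 0 in the 18 mice without ligature. For the 40% HFD, 3 passed. The count was 7 with quality weights, 1 with quantile normalization or with the endothelial, adipocyte or liver sinusoid score, and 0 with no filter, with the hepatocyte, epididymis or mesothelial score, or in the 18 mice without ligature. Between the HFDs, 0 passed, and 1 (*Flt1*) without the libraries with epididymis RNA. For genotype 0 passed, with 3 under quality weights and 1 under the adipocyte score or without the 2 libraries that went against their labels. For ligature 0 passed, with 2 under quality weights and 1 under the mesothelial score or without the libraries with epididymis RNA.

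Within strata, 2 genotype values passed, and 6 with quality weights, 13 by the study's thresholds applied to limma's p (no higher than 0.05, unadjusted, with a 1.5-fold rise or a fall to 0.67 or below), 0 with the hepatocyte or adipocyte score, and 1 with the sinusoid score or in separate fits of each ligature state. Of the diet values 3 passed, and 27 with quality weights, 25 by those thresholds, 5 by edgeR and without either set of libraries, and 1 with the hepatocyte or sinusoid score. Of the ligature values 1 passed, and 2 with a pseudocount of 0.1, a mean of at least 5, quantile or median-of-ratios scaling, edgeR, the kidney, epididymis, endothelial or adipocyte score, or without the libraries against their labels, 4 without those with epididymis RNA, and 7 with quality weights or by those thresholds. Of the interactions 0 passed, and 9 with quality weights, 10 by those thresholds and 3 without the libraries with epididymis RNA. With the adipocyte score, *Vegfb* turned to 0.011 for genotype and -0.0036 for ligature. With *Adipoq*, which is lower in CCL19-KI mice, left out of that score these were -0.08 and 0.0097, 0 genes passed for genotype in place of 1 (*Pecam1*), 4 diet values passed within strata in place of 3, and the other counts were the same with and without it. The cause was not tested.

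Leaving out 1 mouse at a time, the counts ran from 2 to 4 for the 60% HFD, 0 to 4 for the 40% HFD, 0 to 0 between the HFDs and for ligature, 0 to 1 for genotype, 0 to 4, 0 to 2 and 1 to 5 for the genotype, ligature and diet strata, and 0 to 2 for interactions. Of 26 averaged values with an unadjusted p of at least 0.1, 21 turned sign under at least 1 of 22 settings. With the replicate block, the counts were 3, 3, 0, 0 and 0 for the averaged comparisons, 2, 1 and 3 for the strata and 0 for interactions, and it changed no call. The numbers share no more than a name (mean r -0.00825 for the same number and 0.00436 for others, with 19 of 66 group pairs over 0.1, and 10 of 36 libraries closest to their own number). Quantile scaling moved the share of higher calls among all genes from 54.8% to 32.6% for the 60% HFD, from 58.2% to 40.4% for the 40% HFD and from 62.4% to 48.1% between them. *Esm1*, at 0 to 42 reads, is the gene most limited by depth.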
